A study of Mus musculus with 4 samples.

Results

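The Cd300 receptor family of the mouse was described in macrophages with and without silencing of IRF2, a transcription factor of the interferon regulatory factor family. Its 10 members here, Cd300a, Cd300c, Cd300c2, Cd300e, Cd300lb, Cd300ld, Cd300ld2, Cd300ld3, Cd300lf and Cd300lg, were taken by gene symbol, through the Ensembl identifiers of a table of 48795 genes. All 10 were found, none was at 0 in any library, and all 10 passed the filter on low counts. As a family they were selected on measured values, their levels and their log2 fold changes between the siRNA groups. Those differences are therefore given as a description and printed without p-values. Where a member is said to have fallen or passed, this is its call in a fit over all genes. Because of the selection such a call is not evidence about the family. The macrophages were grown from bone marrow of C57BL/6 mice for 5 days in medium with 10% fetal bovine serum and M-CSF at 50 ng/ml, the growth factor that drives macrophage differentiation. Cells of both groups were transfected with 50 nM siRNA, short double-stranded RNA that leads the cell to cleave mRNA of complementary sequence, and harvested 48 h later. There were 2 libraries with control siRNA and 2 with siRNAs specific for IRF2, and the labels do not say whether the replicates were separate cultures or animals, so the spread between them may be technical. The labels also leave the sequences of the siRNAs and the number of animals unstated, and transfection itself is common to both groups.

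CD300 proteins are surface receptors of myeloid cells with an extracellular immunoglobulin-like domain, and several of them bind membrane lipids such as phosphatidylserine that dying cells expose. The inhibitory receptors, encoded by Cd300a and Cd300lf, carry tyrosine motifs in long cytoplasmic tails that recruit phosphatases such as SHP-1. The activating receptors have short tails and signal through adaptor proteins with tyrosine motifs of their own, DAP12 (encoded by Tyrobp), the Fc receptor gamma chain (Fcer1g) and DAP10 (Hcst), which engage the kinase Syk or related pathways. In macrophages, mast cells and neutrophils the paired receptors tune phagocytosis and cytokine release.

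Of the 10 members, 9 lie in a cluster of 244.0 kb on chromosome 11 (GRCm38, the assembly of mm10), with Cd300a at one end on the plus strand and the other 8 on the minus strand. Cd300lg lies on the same chromosome, 12.8 Mb away. Cd300a spans chr11:114890041-114904654, Cd300ld chr11:114982274-114989922, Cd300ld3 chr11:115042131-115048409, Cd300e chr11:115051917-115062177 and Cd300lf chr11:115116214-115133992. No exon of a member overlaps an exon of another annotated gene on either strand.

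Promoter sequences are shown for 6 members, because the members differed in how far their mRNA was lower with IRF2 siRNA and the windows show what they do and do not share. The windows come from RefSeq (GRCm38.p6), run 5′ to 3′ on the strand of the gene, and reach from 250 bases before the annotated RefSeq start to 50 bases after it. They were available for 8 of the 10 members, all but Cd300ld2 and Cd300lg. Capitals mark GAGGAAGT, a core bound by the myeloid factor PU.1, or an IRF repeat, GAAA followed by any 2 bases and a further GAAA, as bound by interferon regulatory factors; both strands were searched.
Cd300ld, chr11:114989837-114990136, minus strand: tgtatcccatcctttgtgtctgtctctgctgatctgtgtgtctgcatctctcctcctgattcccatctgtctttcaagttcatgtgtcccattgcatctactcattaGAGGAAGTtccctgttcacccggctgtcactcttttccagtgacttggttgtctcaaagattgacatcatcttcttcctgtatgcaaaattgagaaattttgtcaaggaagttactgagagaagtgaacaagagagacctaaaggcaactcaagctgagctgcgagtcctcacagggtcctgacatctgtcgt
Cd300ld3, chr11:115048281-115048580, minus strand: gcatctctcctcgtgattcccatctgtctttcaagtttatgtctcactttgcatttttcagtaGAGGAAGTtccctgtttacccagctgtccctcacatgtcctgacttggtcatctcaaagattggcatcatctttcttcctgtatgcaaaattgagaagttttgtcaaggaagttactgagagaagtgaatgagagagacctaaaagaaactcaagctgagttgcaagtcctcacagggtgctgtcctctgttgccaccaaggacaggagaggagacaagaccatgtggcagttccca
Cd300lf, chr11:115133943-115134242, minus strand: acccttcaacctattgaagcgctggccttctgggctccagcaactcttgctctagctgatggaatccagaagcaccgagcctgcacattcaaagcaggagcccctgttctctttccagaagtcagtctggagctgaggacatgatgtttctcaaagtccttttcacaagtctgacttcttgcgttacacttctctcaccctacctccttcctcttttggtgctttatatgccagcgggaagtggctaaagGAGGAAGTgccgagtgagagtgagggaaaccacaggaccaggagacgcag
Cd300e, chr11:115061990-115062289, minus strand: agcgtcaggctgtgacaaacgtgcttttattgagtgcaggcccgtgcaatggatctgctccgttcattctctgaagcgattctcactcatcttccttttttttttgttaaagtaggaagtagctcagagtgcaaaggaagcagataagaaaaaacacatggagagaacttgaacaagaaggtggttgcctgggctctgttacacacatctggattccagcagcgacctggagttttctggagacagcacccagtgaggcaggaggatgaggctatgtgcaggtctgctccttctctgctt
Cd300a, chr11:114889791-114890090, plus strand: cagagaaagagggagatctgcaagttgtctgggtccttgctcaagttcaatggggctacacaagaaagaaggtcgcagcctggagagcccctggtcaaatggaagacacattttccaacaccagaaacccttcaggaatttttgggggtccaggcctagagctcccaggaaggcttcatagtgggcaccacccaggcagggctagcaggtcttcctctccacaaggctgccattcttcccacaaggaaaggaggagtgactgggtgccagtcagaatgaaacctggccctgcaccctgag
Cd300c2, chr11:115001831-115002130, minus strand: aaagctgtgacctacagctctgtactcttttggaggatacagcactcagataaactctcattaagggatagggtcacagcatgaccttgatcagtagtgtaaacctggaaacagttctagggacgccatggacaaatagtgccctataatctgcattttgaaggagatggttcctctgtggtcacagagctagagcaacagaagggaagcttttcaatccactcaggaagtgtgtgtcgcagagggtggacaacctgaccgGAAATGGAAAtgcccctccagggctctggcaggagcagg

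The PU.1 core was found in 3 of the 8 windows, those of Cd300ld, Cd300ld3 and Cd300lf, and in 3.2% of 32851 promoter windows of 300 bases in the same table. Counted from the start base as 0, it begins at position −143 in Cd300ld, −187 in Cd300ld3 and 0 in Cd300lf, in each case on the strand of the gene. The windows of Cd300ld and Cd300ld3 are related in sequence, with 87.1% of 256 aligned bases identical, so their matches do not count as separate. The IRF repeat was found in the windows of Cd300c and Cd300c2 and in 3.44% of all windows. It begins at position 11 in Cd300c2 and at −231 in Cd300c. A composite of an ETS and an IRF site, GGAA followed by any 2 bases and GAAA, was in none of the 8 windows and in 2.72% of all windows. No overlap occurred between the matches. The motifs were chosen with the windows and the expression values in view, and a match is a string of letters, not a measured binding site. Without its first letter the PU.1 core reads AGGAAGT, which also stands in the windows of Cd300e and Cd300c2. Which windows match thus depends on the exact letters chosen, and nothing is read from their number beside the share of all windows.

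The libraries held between 26378584 and 32273565 reads in genes. Irf2, the targeted gene, had 164 and 152 CPM with control siRNA and 56.0 and 56.1 CPM with IRF2 siRNA, 2.81-fold lower, with an edgeR adjusted p = 0.00477. CPM, or counts-per-million, are the reads of a gene relative to all reads in genes, scaled throughout by the trimmed mean of M-values (TMM). The 8 macrophage markers, among them Csf1r, Adgre1 and Cd68, summed to 25142 and 28205 CPM in the control libraries and to 25788 and 27202 CPM in the IRF2 siRNA libraries. None of them passed in edgeR, DESeq2 or limma-voom or had an unadjusted p under 0.05 in edgeR, although 2 fell without control replicate 2. Of the 9 neutrophil markers Retnlg was at 0, and of the 7 markers of mast cells and basophils 4 were at 0 (Fcer1a, Mcpt8, Ms4a2 and Tpsb2). Those lists summed to at most 11.01 and 0.413 CPM in any library. Dendritic cell, fibroblast and erythroid markers summed to at most 2.24, 11.3 and 0.399 CPM, and T and NK cell markers, with Cd8a at 0, to 20.9 to 31.3 CPM, nearly all from Cd4. The control replicates differed more from each other over all genes than the IRF2 siRNA replicates did.

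Levels of the members were compared per kilobase of exon, since longer transcripts collect more reads. With control siRNA the order ran from Cd300c2 through Cd300lb, Cd300ld, Cd300a, Cd300e, Cd300ld3, Cd300lf, Cd300ld2 and Cd300c to Cd300lg. Cd300c2, which encodes an activating receptor that pairs with DAP12 or the Fc receptor gamma chain, stood at 287 ± 50.6 CPM per kb (SD, n = 2). Cd300lb, an activating receptor coupled to DAP12, stood at 135.0 ± 2.39 CPM per kb, and Cd300ld, coupled to the Fc receptor gamma chain, at 121 ± 11.8 CPM per kb (SD, n = 2 each). The inhibitory Cd300a had 81.6 ± 0.645 CPM per kb, while the inhibitory Cd300lf had 8.22 ± 0.131 CPM per kb (SD, n = 2 each). Cd300lg, which encodes nepmucin, a mucin-like receptor known from vascular endothelium, had the lowest level, 1.3 ± 0.0966 CPM per kb (SD, n = 2), and the 6 endothelial markers summed to between 35.0 and 39.3 CPM in every library, most of it Pecam1.

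Neighbours in that order did not overlap between the control libraries, but some gaps were narrow. Cd300ld3 at 9.1 to 10.9 CPM per kb stood just above Cd300lf at 8.12 to 8.31 CPM per kb, and Cd300c at 1.44 to 1.49 just above Cd300lg at 1.23 to 1.37 CPM per kb. With the length of the longest transcript in place of all exons, Cd300lf came to 10.8 CPM per kb, above Cd300ld3, and Cd300c to 2.23 CPM per kb, above Cd300ld2. With IRF2 siRNA the place of Cd300ld changed. It had 53.6 ± 1.82 CPM per kb, below Cd300a at 81.4 ± 2.32 CPM per kb (SD, n = 2 each), whereas in both control libraries it stood above Cd300a. In the IRF2 siRNA libraries Cd300ld3 overlapped Cd300lf, and Cd300c overlapped Cd300lg. Of the 50-base stretches of Cd300ld3 82.1% also occur in another gene, and of those of Cd300ld2 31.0%. Reads that align to several places were left uncounted, while levels were divided by all exon bases. The levels of Cd300ld3 and Cd300ld2 may thus be too low, and their places in the order are uncertain.

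**Figure D1:**
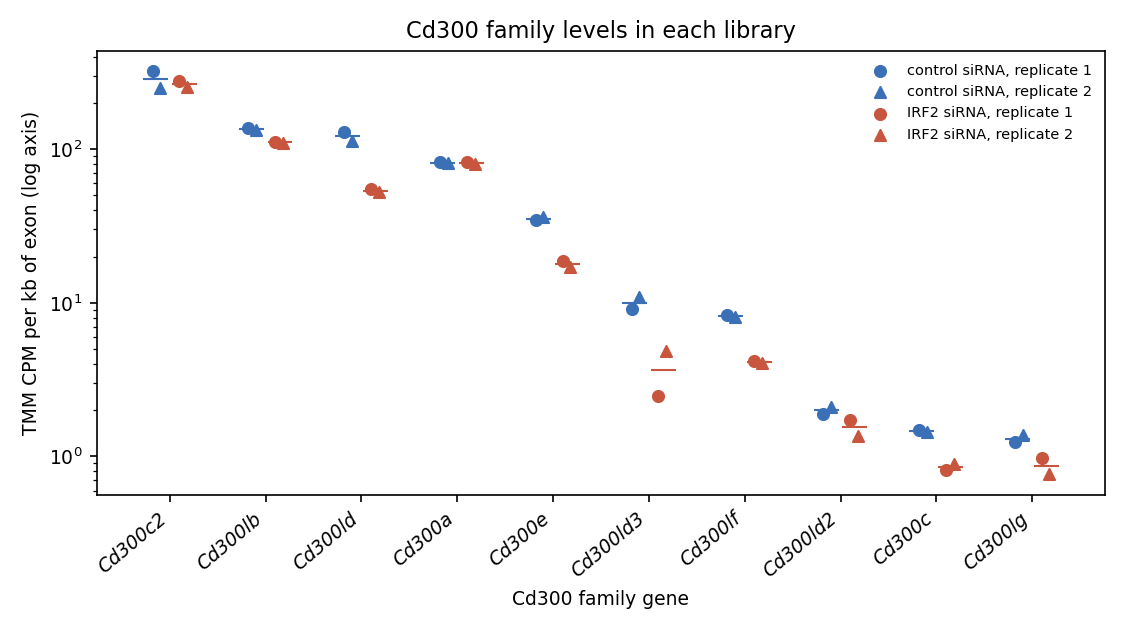
Level of each Cd300 gene in each of the 4 libraries, in TMM-scaled CPM per kb of exon on a log axis, with horizontal lines at the group means. Cd300c2 is highest in both groups, and Cd300ld moves from 121 to 53.6 CPM per kb, from above to below Cd300a.

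The question of the study's comparison is which transcripts differ when Irf2 is silenced. Within the Cd300 family, the mRNAs of Cd300ld, Cd300lf and Cd300e fell by 1.97-fold to 2.26-fold, Cd300a and Cd300c2 showed overlapping groups, and no member rose. Over the whole table, edgeR's quasi-likelihood test called a gene at a Benjamini-Hochberg adjusted p under 0.05, and 241 of 13495 genes, 1.79%, passed, of which 172, 1.27% of those tested, fell and 69, 0.511%, rose. In that fit 3 of the 10 Cd300 members fell. None rose, and none had a log2 fold change above 0 at an unadjusted p under 0.05; DESeq2 and limma-voom also called none that rose. At an adjusted p under 0.01, 1 member passed, Cd300ld, where 0.371% of all genes passed and 0.178% fell. The log2 fold change was below 0 for all 10 members, against 50.3% of all genes tested. Its median was −0.68, against −0.0015 over all genes tested. These shares are printed for scale, and nothing is read from them, since the family was selected on this comparison.

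Cd300ld encodes the activating receptor also named CLM-5. It had 343 and 298 CPM in control replicates 1 and 2, and 145 and 138 CPM in IRF2 siRNA replicates 1 and 2. The lower control library was still above the higher IRF2 siRNA library by a wide margin. On the log2 scale the change was −1.18, with 0.12 as its standard error (SE), which is 2.26-fold lower. Cd300ld accounted for 20.0 ± 0.671% of the family's CPM with control siRNA and for 11.3 ± 0.024% with IRF2 siRNA (SD, n = 2 each).

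Cd300lf, whose inhibitory product is also the entry receptor of murine norovirus, had 42.8 and 41.8 CPM with control siRNA and 21.6 and 21.0 CPM with IRF2 siRNA. Replicates lay close together in both groups. The log2 fold change was −0.99 with an SE of 0.12, which is 1.98-fold lower. The gene lies within the span of Rab37, on the opposite strand, without overlap of exons. Whether the counting used strand is not given in the sources used here, and Rab37 itself had at most 0.953 CPM and a log2 fold change of −1.30 (SE 0.41).

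Cd300e, which in human monocytes encodes an activating receptor coupled to DAP12, had 71.8 and 75.4 CPM with control siRNA and 39.3 and 35.5 CPM with IRF2 siRNA. Both IRF2 siRNA libraries were well below both controls. The log2 fold change was −0.98 with an SE of 0.12, which is 1.97-fold lower. Cd300e did not pass without IRF2 siRNA replicate 2, at a log2 fold change of −0.90, while Cd300ld and Cd300lf passed whichever library was left out. Without a filter on low counts Cd300ld was the only member that passed.

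Cd300ld3 had the lowest fitted change of the family but did not pass. It had 7.75 and 9.25 CPM with control siRNA and 2.11 and 4.15 CPM with IRF2 siRNA, from 225, 301, 56 and 113 reads. The groups did not overlap, but the IRF2 siRNA replicates lay far apart for their level. The log2 fold change was −1.44 with an SE of 0.30, and it ran from −2.0 to −1.03 when a library was left out. It passed with DESeq2, where 400 of 23133 genes passed. With a replicate block it also passed, where 1521 of 13495 genes passed, against 241 of 13495 in the main fit. Without either control library and without IRF2 siRNA replicate 2 it passed as well, but these fits left 1 library in a group. Far more genes also passed over the whole table without a control library.

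The inhibitory Cd300a had 389 and 385 CPM with control siRNA and 393 and 378 CPM with IRF2 siRNA. The IRF2 siRNA libraries lay on either side of the controls. Its log2 fold change was −0.0048 with an SE of 0.11, and its sign turned with the scaling (0.021 by library size alone). Of the inhibitory pair, then, Cd300lf fell and Cd300a had overlapping groups, and the difference between their changes was not tested.

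Cd300c2 had 412 and 321 CPM with control siRNA and 356 and 323 CPM with IRF2 siRNA. Control replicate 1 was the highest and the other 3 libraries were close together. The log2 fold change was −0.11 with an SE of 0.15, and it was 0.087 without control replicate 1. Cd300lb had 399 and 389 CPM with control siRNA and 326 and 321 CPM with IRF2 siRNA. Its groups did not overlap, and its log2 fold change of −0.28, with an SE of 0.11, did not pass.

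The remaining members had at most 3.75 CPM in any library. Cd300c, whose human counterpart is an activating receptor, had 1.58 and 1.54 CPM with control siRNA and 0.868 and 0.954 CPM with IRF2 siRNA, from 23 to 50 reads a library. Cd300lg had 3.38 and 3.75 CPM with control siRNA and 2.68 and 2.09 CPM with IRF2 siRNA. Cd300ld2 had 1.72 and 1.94 CPM with control siRNA and 1.59 and 1.25 CPM with IRF2 siRNA. In each of these genes both IRF2 siRNA libraries were below both controls. None passed, with log2 fold changes of −0.77 (SE 0.27) for Cd300c, −0.58 (SE 0.22) for Cd300lg and −0.37 (SE 0.26) for Cd300ld2. In all, 8 of the 10 members had both IRF2 siRNA libraries below both controls, an arrangement found in 19.4% of all genes tested, and none had both above, against 19.0%.

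**Figure D2:**
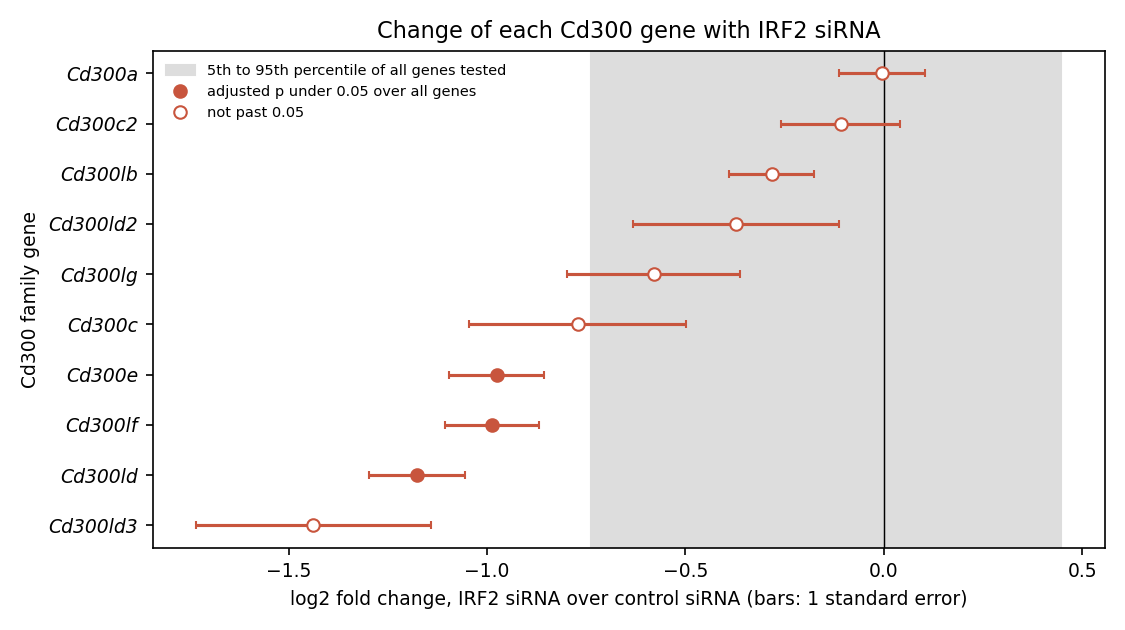
Log2 fold change of each Cd300 gene with IRF2 siRNA over control siRNA, with bars of 1 SE, over a grey band from the 5th to the 95th percentile of all genes tested (−0.74 to 0.45). Filled points passed an adjusted p under 0.05 over all genes, which were Cd300ld, Cd300lf and Cd300e. Cd300a lies near 0.

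The family as a whole had 1671 and 1526 CPM in control replicates 1 and 2, and 1289 and 1225 CPM in IRF2 siRNA replicates 1 and 2. The lowest control total was above the highest IRF2 siRNA total. The group means were 1599 ± 102 and 1257 ± 45.3 CPM (SD, n = 2 each), a ratio of 1.27. Cd300a made up 24.2 ± 1.36% of the family's CPM with control siRNA and 30.7 ± 0.231% with IRF2 siRNA (SD, n = 2 each). In cultured cells measured in bulk, fewer cells expressing a gene and less mRNA per cell cannot be told apart.

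Some markers of monocytes were also lower with IRF2 siRNA. Of 5 on the list 4 were tested, 2 fell and none rose, where 1.27% of all genes tested fell and 0.511% rose. The list summed to 217 and 235 CPM in the control libraries and to 89.9 and 95.2 CPM in the IRF2 siRNA libraries. Those that fell were Spn, which encodes CD43, with a log2 fold change of −2.53, and Cx3cr1, the fractalkine receptor, with −1.60 (edgeR adjusted p = 0.000912 and 0.00477). Exons of the latter overlap Gm33858 on the other strand. No monocyte marker had a log2 fold change above 0 at an unadjusted p under 0.05, and neither DESeq2 nor limma-voom called one that rose. Ccr2, a chemokine receptor of inflammatory monocytes, stood at −0.78 on the log2 scale, an edgeR adjusted p of 0.0509, and passed with DESeq2 and without either control library. Ly6c2 lay the other way, at 0.448 and 0.399 CPM with control siRNA and 0.793 and 0.55 CPM with IRF2 siRNA, a log2 fold change of 0.66 (SE 0.42) that did not pass. The part of these markers in the lower Cd300ld, Cd300lf and Cd300e was not tested.

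Along the cluster, members that fell lie beside members that did not pass. From Cd300a outward the log2 fold changes were −0.0048 for Cd300a, −0.28 for Cd300lb, −0.77 for Cd300c, −1.18 for Cd300ld, −0.11 for Cd300c2, −0.37 for Cd300ld2, −1.44 for Cd300ld3, −0.98 for Cd300e and −0.99 for Cd300lf. Cd300c2, with its groups overlapping, therefore lies directly beside Cd300ld, which fell. Of all genes tested 1.79% passed. Within 200 kb of the cluster 11 genes outside the Cd300 family were tested, and none rose or fell. Among them 2 had a log2 fold change above 0 and 1 below 0 at an unadjusted p under 0.05, and neither DESeq2 nor limma-voom called any. Without control replicate 2, 1 of them rose and 1 fell, and with a replicate block 2 rose and 1 fell. Their median log2 fold change was −0.15, with a range from −1.30 for Rab37 to 0.34 for Ttyh2. With so few genes, here and around Cd300lg, an absence of calls does not show that the genes were unaffected. Around Cd300lg 6 other genes were tested within the same distance and none passed in edgeR, DESeq2 or limma-voom, with 1 below 0 at an unadjusted p under 0.05. In that group 1 gene fell without either control library and with the replicate block.

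**Figure D3:**
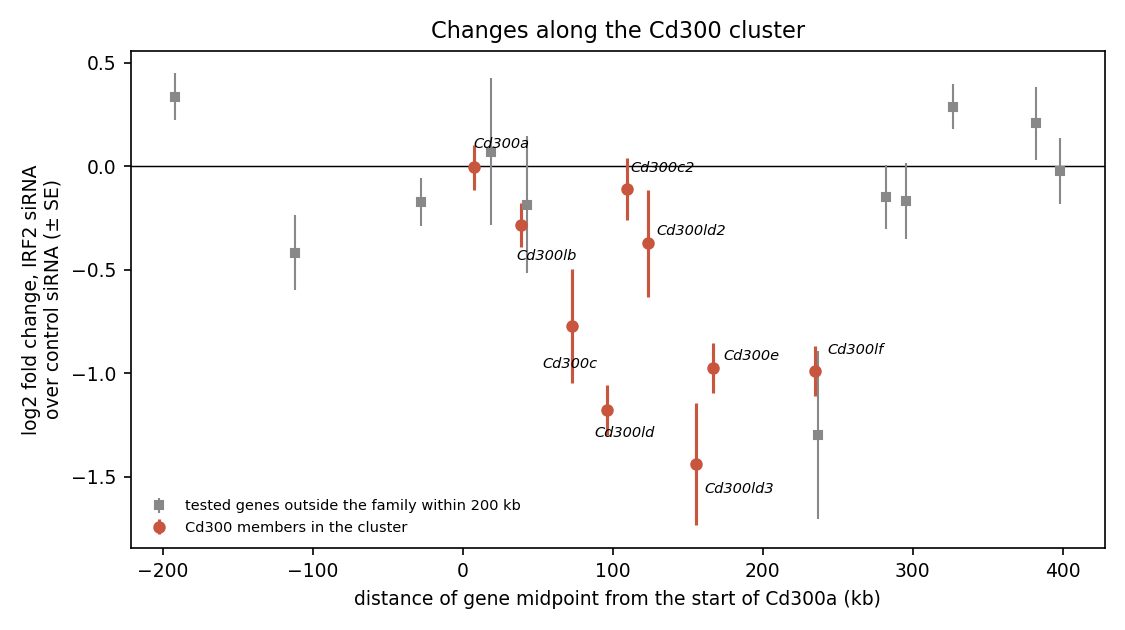
Log2 fold change (± SE) of the 9 clustered Cd300 genes and of the 11 tested genes outside the family within 200 kb, against the distance of each gene's midpoint from the start of Cd300a in kb. Cd300ld at −1.18 and Cd300c2 at −0.11 are neighbours, and Rab37 at −1.30 overlies Cd300lf.

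The members also differ in how well their reads can be told apart. Cd300ld2, Cd300ld3 and their unlisted copies Cd300ld4 and Cd300ld5 form a set of near copies. Coding sequences of Cd300ld3 and Cd300ld5 are identical at 99.6% of 735 aligned bases, and those of Cd300ld2 and Cd300ld3 at 96.7%. Of all 50-base stretches of Cd300ld3 transcripts, 82.1% also occur in another annotated gene, against 31.0% for Cd300ld2, 7.16% for Cd300c2, 3.89% for Cd300ld, 3.45% for Cd300a and 2.44% for Cd300lf. Cd300c, Cd300e and Cd300lb share no such stretch. Reads that align to more than 1 place were left uncounted, so the counts of Cd300ld2 and Cd300ld3 rest on the stretches that are unique to them and are uncertain.

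Coding similarity was set beside the changes. Cd300ld and Cd300lf, which both fell, are identical at 83.9% of 658 aligned coding bases. Cd300ld is closer to Cd300ld3 and Cd300ld2, at 85.7% and 84.3% of 663 bases. Their log2 fold changes of −1.44 and −0.37 did not pass. Cd300a and Cd300c2, whose groups overlap, are identical at 81.3% of 675. Cd300e, which also fell, reached at most 67.9% with any member, and that was with Cd300lg. Cd300c2 and Cd300c are identical at 84.4% of 684 bases, with log2 fold changes of −0.11 and −0.77. These are descriptions, and no relation between similarity and change was tested.

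The partners through which the receptors signal were listed separately. Over all genes tested 1.79% passed. An absence of calls in a short list, here and in the lists that follow, does not show that its genes were unaffected. Of 12 tested genes of activating signalling, none rose or fell in edgeR, DESeq2 or limma-voom, and none had an unadjusted p under 0.05 in edgeR. Their median log2 fold change was 0.047. Tyrobp stood at 805 ± 103 CPM in control cells and at 863 ± 99.7 CPM after IRF2 silencing, and Fcer1g at 1404 ± 206 and 1546 ± 151 CPM (SD, n = 2 each). Hcst stood at 9.81 ± 2.35 and 8.43 ± 0.0144 CPM (SD, n = 2 each). The smallest p in the list belonged to Lcp2, an adaptor downstream of Syk, at 0.19 on the log2 scale (edgeR adjusted p = 0.666). Next was Lyn, a Src family kinase, at −0.18 (edgeR adjusted p = 0.697). Exons of Lcp2 overlap 4930469K13Rik and those of Lyn overlap Gm26857, both on the other strand, so their values are uncertain.

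Of 8 genes of inhibitory signalling, among them the phosphatases SHP-1 (Ptpn6), SHP-2 (Ptpn11) and SHIP-1 (Inpp5d), none passed with any of these 3 tools, and none had an unadjusted p under 0.05 in edgeR. The median log2 fold change was −0.010. Ptpn6 had 593 ± 58.1 and 578 ± 29.2 CPM with control and IRF2 siRNA (SD, n = 2 each). Its exons overlap Gm20531 on the other strand, so its value is uncertain. Dok1 and Dok2, docking proteins of immune receptors, had the smallest p, with log2 fold changes of −0.20 and −0.14 and edgeR adjusted p-values of 0.762 and 0.90.

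Other receptors and bridging proteins for phosphatidylserine and related lipids had 12 of 17 genes expressed enough to test, and none passed in edgeR, DESeq2 or limma-voom. At an unadjusted p under 0.05, 2 were lower. The median log2 fold change was −0.17. Those with the smallest p were Mfge8, a bridging protein that opsonises dying cells, with a log2 fold change of −0.48 (SE 0.18, edgeR adjusted p = 0.354), and the scavenger receptor Cd36, with −0.29 (SE 0.12, edgeR adjusted p = 0.454). Leaving out control replicate 1, 3 of these genes fell, and leaving out control replicate 2, 2 fell.

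Over all genes tested 1.27% fell and 0.511% rose. Among other inhibitory and paired receptors of myeloid cells, 1 of 17 tested genes fell and none rose, with a median log2 fold change of −0.055. This gene was Cd72, an inhibitory C-type lectin that binds SHP-1, known best from B cells. Its level was 607 ± 34.4 CPM in control cells and 274 ± 2.61 CPM after IRF2 silencing (SD, n = 2 each). Its log2 fold change was −1.15 with an SE of 0.11 and an edgeR adjusted p = 0.0079, lower in both IRF2 siRNA libraries than in both controls. Exons of Cd72 overlap Tesk1 on the other strand, so its value is uncertain. At an unadjusted p under 0.05, 2 genes of the list were higher and 3 lower, limma-voom called none that rose, and DESeq2 called 1. That gene was Cd33, a sialic acid-binding receptor with a log2 fold change of 0.69. Leaving out control replicate 1, 3 of the list fell and 1 rose, and leaving out control replicate 2, 4 fell and 2 rose.

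**Figure D4:**
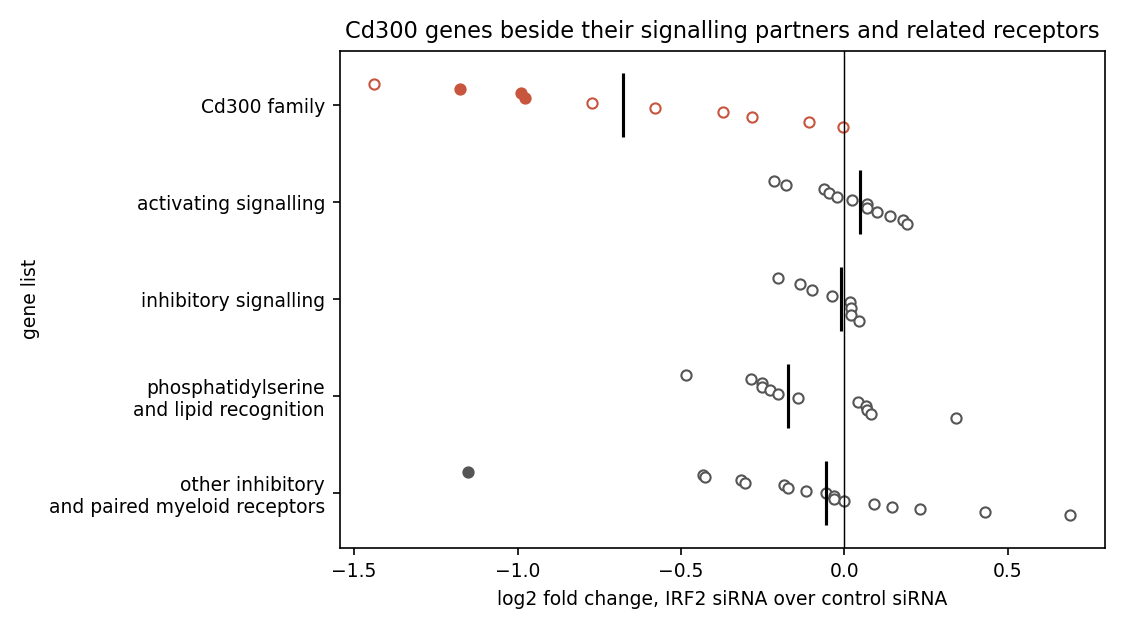
Log2 fold changes of the 10 Cd300 genes and of the tested genes of 4 lists, 1 point a gene, with filled points past an adjusted p under 0.05 over all genes and a black bar at each median. The Cd300 median is −0.68, and the medians of the lists lie between −0.17 and 0.05, with Cd72 the only filled point among them. The family was selected on this comparison, so nothing is read from the distance between the medians.

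Cd300ld3, the member with the lowest log2 fold change, was used to look for genes of like pattern. It did not pass, and its profile is uncertain. It rests on 56 to 301 reads a library, and 82.1% of its 50-base stretches also occur in another gene. Its IRF2 siRNA replicates lay apart, at 2.11 and 4.15 CPM. Likeness was the Euclidean distance between log2 CPM profiles over the 4 libraries, each centred on its own mean, among genes with a mean log2 CPM of at least 3. The nearest genes were Prc1 at a distance of 0.40, Cenpf at 0.42, Pcyt1b at 0.46, Cenpe at 0.48 and Aspm at 0.50. Their log2 fold changes ran from −1.48 for Cenpf to −1.26 for Cenpe. With 4 libraries in 2 groups many genes can share such a profile, and the distance says little beyond the size of the change and the order of the IRF2 siRNA replicates.

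Across the other settings tried, Cd300ld stayed between −1.27 and −1.07, Cd300lf between −1.01 and −0.96, and Cd300e between −1.04 and −0.90. Cd300a stayed between −0.027 and 0.028, and Cd300c2 ranged from −0.28 to 0.087.

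**Figure D5:**
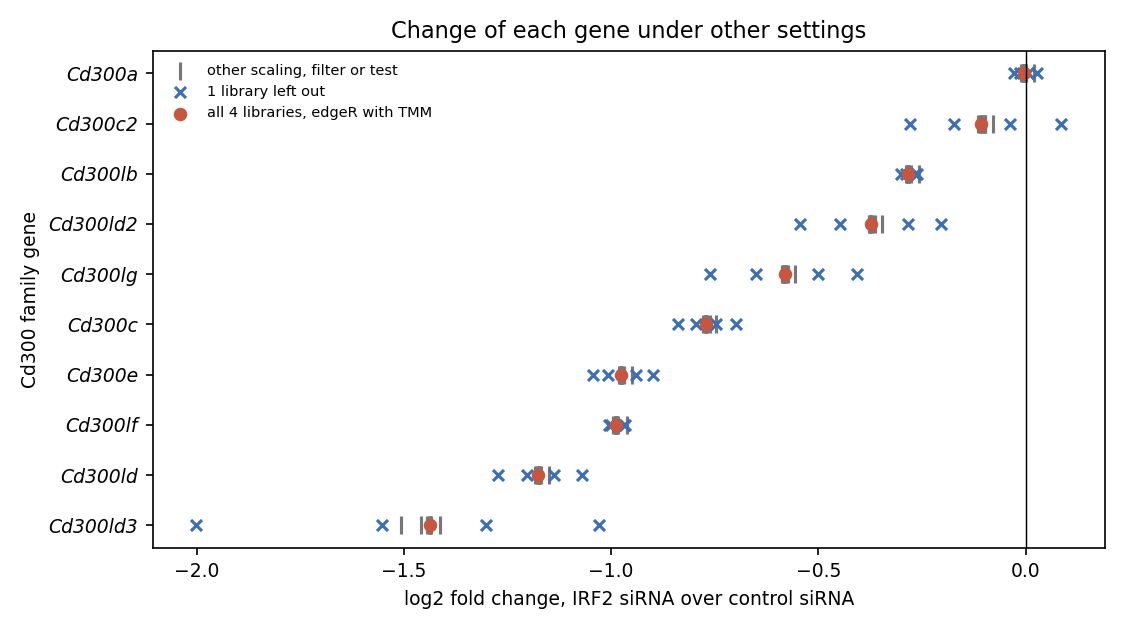
Log2 fold change of each Cd300 gene with all 4 libraries (filled points), under other scalings, filters and tests (grey bars) and with 1 library left out (crosses). Cd300lf moves least among the members that fell, and Cd300ld3 moves most, from −2.0 to −1.03.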

How the data were processed

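The authors deposited raw counts of reads per gene, as whole numbers, for 4 libraries. Per the submitters' processing notes, bcl2fastq 2.18.0.12, STAR 2.5.2b, HTSeq 0.6.0 and DESeq2 were used with the build mm10. Annotation release, read length and strand setting: not given in the sources used here. The table's 5 summary rows were left out; they include 12.5% to 15.0% of reads aligned to more than 1 place and 4.17% to 4.71% ambiguous between genes. Symbols, exon lengths and overlaps came from GENCODE M21 (GRCm38), and promoter windows from RefSeq.

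Counts were fitted in R 4.3.3 with edgeR 4.0.16, using filterByExpr (minimum count 10, minimum total 15), TMM, glmQLFit with legacy = FALSE and glmQLFTest. This tested 13495 genes with Benjamini-Hochberg adjustment over all of them. Standard errors were taken from F, as the size of the log2 fold change over √F. Alternatives used limma 3.58.1, DESeq2 1.42.0, other scalings and filters, a replicate block and leaving out each library. The fit was tested on simulated counts.

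The members, lists and motifs were chosen with earlier results of these data known. Named genes are all members, Irf2, up to 4 called genes per pathway list (or the 2 with the smallest p), called neighbours, and the 5 genes nearest in profile to the member that changed most. Marker lists are given by counts and summed levels. A further marker list is not reported here. Adaptors, phosphatases, Spn, Cx3cr1, Cd33, Rab37 and Ttyh2 were also named after their values were seen. Replicate numbers share no stated pairing. Replicates were not copies, with chi-square statistics per degree of freedom of 46.2 for the control and 9.32 for the IRF2 siRNA libraries.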

Additional observations from a re-analysis of the deposited data

How the results depend on the processing

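Depth limited Cd300c, Cd300ld2 and Cd300lg, with 23 to 122 reads a library, and Cd300ld3, with 56 to 301. A group left with 1 library is assumed to vary like the other group. Calls over all genes numbered 72 of 23133 (31 rose, 41 fell) without a filter. With DESeq2 they numbered 400 of 23133 (120 rose, 280 fell), and the cause was not tested for either setting. At an adjusted p under 0.01 calls numbered 50 of 13495 (26 rose, 24 fell). With 1 library left out they ran from 237 to 1770, with 62 to 710 that rose and 171 to 1060 that fell, the 1424 and 1770 being without control replicates 1 and 2. Cd300 members that fell numbered 1 without a filter and 1 at 0.01, in both cases Cd300ld, and 3 or 4 with a library left out. Over the 4 pathway lists, 1 gene rose with DESeq2, and 0 to 2 rose and 1 to 6 fell with a library left out, the 6 without either control. Cd300a turned above 0 when scaled by library size alone, at 0.021, and with DESeq2, at 0.0016, and ran from −0.027 to 0.028 with a library left out; Cd300c2 then ran from −0.28 to 0.087. Adding the reads of the near copies to Cd300ld, an alternative chosen after seeing the data, changed no call of the other members, and since nearly all reads of the sum are those of Cd300ld it does not bear on the copies. The family total moved by less than its SD with other scalings. The replicate block uses numbers that share no stated pairing (deviations of same-numbered libraries correlated at 0.37 across genes). It gave 1521 calls among 13495 genes (503 rose, 1018 fell). With that many calls over all genes, 5 Cd300 members fell, the additional ones being Cd300ld3 and Cd300lb, and nothing is read from their number. Over the pathway lists 2 genes rose and 5 fell with the block, and the cause was not tested.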

Other observations

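The cluster holds a further pair of Cd300 genes between Cd300ld2 and Cd300ld3 that are outside the list of members. Cd300ld4 had 23 and 22 reads with control siRNA and 11 and 21 with IRF2 siRNA, so its groups differed by less than the spread between replicates, at −0.30 on the log2 scale (SE 0.42). Cd300ld5 had 1 read in control replicate 2 and 0 in the other libraries. Every 50-base stretch of its transcripts (100%) also occurs in another gene, so a count near 0 does not measure its expression. For Cd300ld4 the share is 93.8%, so its low counts and its change are uncertain too. The 300-base promoter windows of Cd300ld4 and Cd300ld5 are identical, and both hold the PU.1 core at position −187 from the start, as Cd300ld3 does.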
